A study of Mus musculus with 6 samples.

Results

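The genes described here make and move sterols and fatty acids: 37 genes of the mevalonate and sterol pathways, of their regulation by SREBP, of cholesterol transport and of lipogenesis, matched by gene symbol among the 55364 genes listed in the count tables. They are not every gene of these pathways. RNA came from primary mouse lung fibroblasts (LFs), grown from the lungs of C57Bl6/J mice aged 8 to 10 weeks and exposed in serum-free medium to 10 ng/ml TGFβ for 24 h, which turns fibroblasts into matrix-producing myofibroblasts. There were 3 libraries of wt LFs and 3 of LFs that the labels call a knockout and the study's methods call Tks5+/-, that is, carrying 1 disrupted copy of Sh3pxd2a, the gene of the podosome scaffold protein Tks5. The disrupted allele was present in all cells of the animal and not only in fibroblasts, and the wt LFs came from littermates. All 6 libraries received TGFβ, so that the effect of TGFβ itself was not analysed here. The labels do not tie a library to an animal, and the p-values therefore measure the spread between these libraries, which may in part be technical.

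Cells build cholesterol from acetyl-CoA through mevalonate, isoprenoid units, squalene and lanosterol, and build fatty acids from the same acetyl-CoA through malonyl-CoA. Most enzymes of both routes are transcribed under the control of the SREBP factors, membrane proteins of the endoplasmic reticulum that are escorted by Scap to the Golgi for cleavage when sterols are scarce and are held back by the Insig proteins when sterols are plentiful. In fibroblasts grown without serum lipoproteins, synthesis within the cell is the main source of sterols.

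Libraries held between 1344507 and 2369882 counts in wt and between 1979084 and 2329155 in those labelled Tks5+/-. The targeted gene was not lower in the libraries labelled Tks5+/-. Sh3pxd2a had 132, 102 and 105 CPM (counts scaled to a common library size by the TMM method) in wt and 131, 151 and 133 in those labelled Tks5+/- (log2 fold change 0.29, SE 0.20, adjusted p = 0.249), and the groups overlapped. Corrected for the trend of the libraries with transcript length, it was called higher (1.0, adjusted p = 5.19e-04), as it was with GC content corrected too (1.15, adjusted p = 1.09e-04). Counting was on the ends of transcripts, and where the Sh3pxd2a reads lay against the deleted exon was not examined. The deletion itself was therefore not tested. By quantitative PCR, the study reported reduced Tks5 mRNA in Tks5+/- LFs. All directions below are those of the libraries labelled Tks5+/-. Markers of other cell types moved with the labels. By the test given below, 22.1% of all genes tested were called lower and 22.8% higher, and counts of called markers are to be read beside these shares. Macrophage markers summed to 364 to 2440 CPM in wt, the highest in wt replicate 3, and to 147 to 161 CPM in the libraries labelled Tks5+/-, where Ptprc, Adgre1 and Marco were at 0. Of the 15 markers 10 were tested, and 4 were called lower. Endothelial markers summed to 109 to 131 CPM in wt and 45.6 to 60.4 CPM in the others, with Pecam1 and Tek at 0 and 3 of the 4 tested markers, of 7 listed, called lower. Mesothelial markers summed to 18.2 to 23.8 and 2.56 to 8.23 CPM (1 of 4 markers was tested, and it was called lower). All 8 epithelial markers were at 0 in the libraries labelled Tks5+/-, against sums of 4.82 to 25.2 CPM in wt, where 4 of them were at 0 as well. The 8 fibroblast markers summed to 3030 to 4640 and 4170 to 6700 CPM, respectively, and 3 of them were called higher and 1 lower. The part of these cells in the results below was not tested, and in such bulk RNA fewer cells of a type and less RNA per cell cannot be told apart.

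Among the sterol and fatty acid synthesis genes, calls were mostly falls in the libraries labelled Tks5+/-. Of 36 members with enough counts to test, 18 were called lower and 2 higher (edgeR's quasi-likelihood test, Benjamini-Hochberg adjusted p under 0.05 over all 10346 genes tested and a fold change of at least 1.2), and 16 were not called. These are 50% and 5.56% of the tested members, while 22.1% of all tested genes were called lower and 22.8% higher. The members were chosen with earlier results of these data known, so this contrast describes the list and is no test of it. The median log2 fold change of the 36 members was -0.65, and that of all tested genes -0.05. In 18 of the 36 tested members, or 50%, every library labelled Tks5+/- lay below every wt library, against 27.6% of all genes tested. These were the 18 called lower, and as the call uses the same libraries, this order is no separate support. Only Insig2, a brake on SREBP, had the reverse order (2.78% of members, against 26.1% of all genes). For a single gene, this complete separation gives the smallest exact two-sided permutation p that 3 libraries against 3 allow, 0.1. The scaling of the libraries bears on these shares. TMM factors were 1.15 to 1.17 in wt and 0.817 to 0.932 in the libraries labelled Tks5+/-, and scaling by library totals alone moved the median of all genes to -0.47, called 3944 of all genes lower and 1362 higher, and called 24 members lower and 1 higher, with a members' median of -1.06. The 6 members added by that scaling were Pmvk, Fdps, Cyp51, Msmo1, Npc1 and Scd2, and the one lost was Sc5d. Without wt replicate 3, the library with the highest sum of macrophage markers, the counts of members were again 18 and 2, and those of all genes 1924 and 2162. Macrophage markers still summed to 425 and 364 CPM in wt replicates 1 and 2, above the 147 to 161 CPM of the libraries labelled Tks5+/-. This fit thus keeps a difference in these markers, and their part was not tested.

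**Figure D1:**
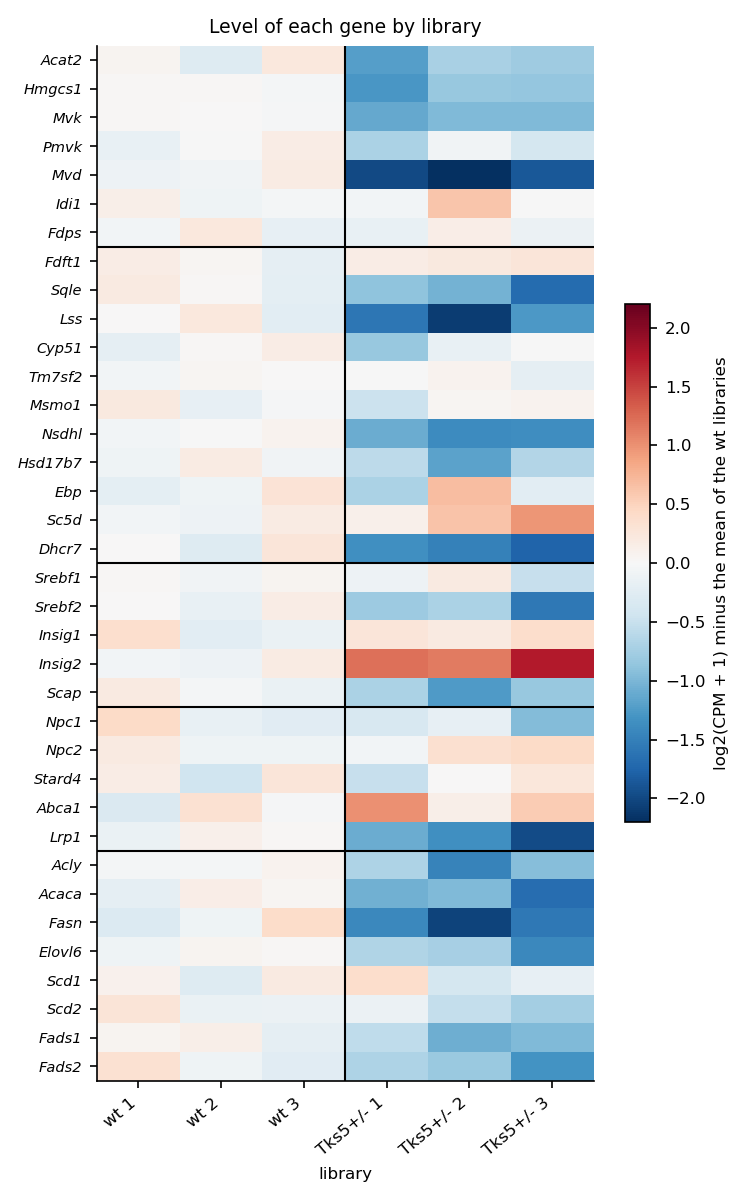
Level of each of the 36 tested members (rows, ordered by role, black lines between roles) in each of the 6 libraries (columns), as log2(CPM + 1) minus the mean of the 3 wt libraries (colour scale, blue lower and red higher). The libraries labelled Tks5+/- are blue for most rows of the mevalonate and lipogenesis blocks, and Insig2 is the darkest red row. Fdft1, Sc5d, Insig1 and Abca1 are paler red in all 3.

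**Figure D2:**
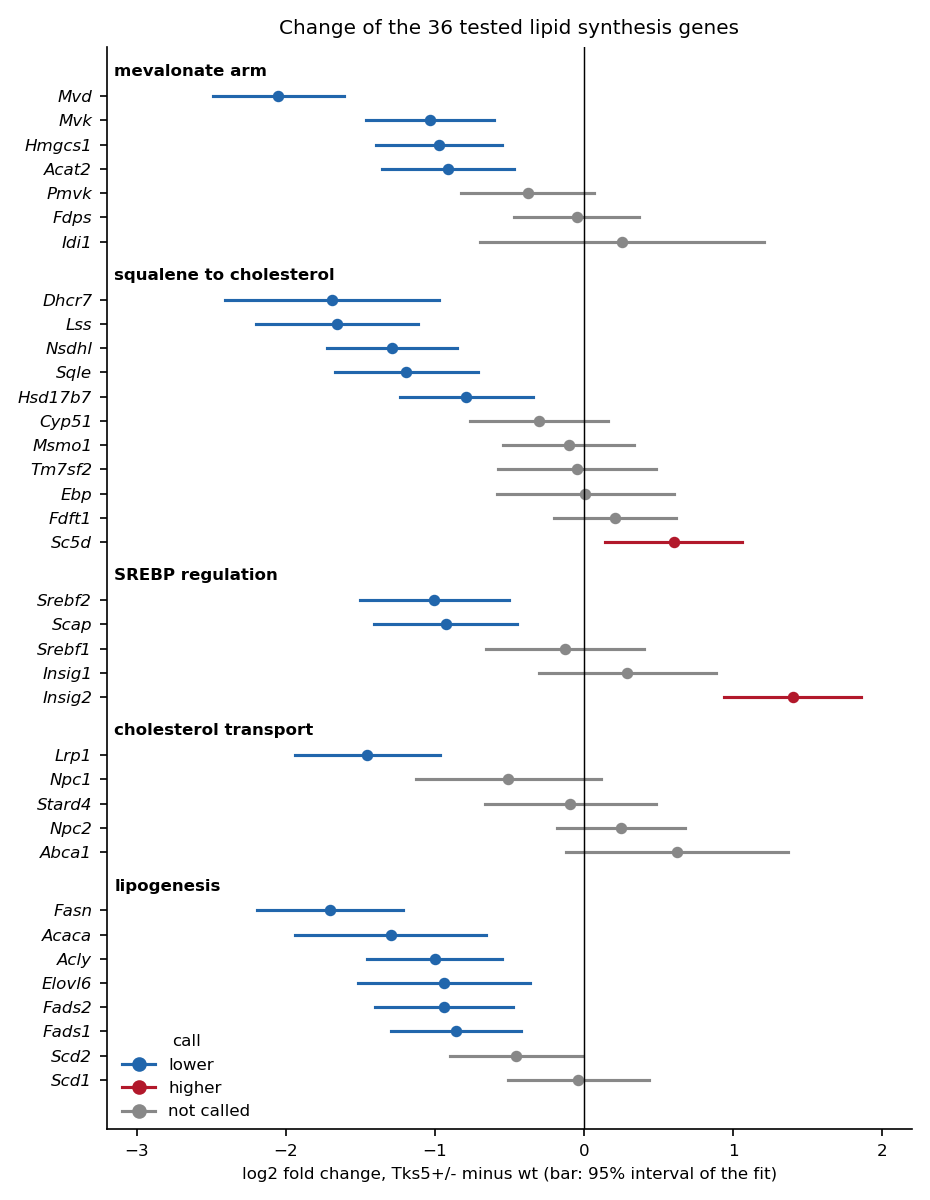
Log2 fold change of each tested member, libraries labelled Tks5+/- minus wt (x axis), with its 95% interval from the edgeR fit of 3 libraries per group (bars), by role. The 18 members called lower are blue, the 2 called higher red and the 16 not called grey.

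The promoters of 28 of the 37 members were found in the RefSeq table for GRCm38.p6 (windows from 250 bases before to 50 bases after the start), and 4 of them are shown for genes that turn up below as ends of the pathways or as the member that rose: Hmgcs1, which opens the mevalonate arm and was the only member with the sterol element searched for in its window; Mvd, the enzyme that fell most; Fasn, the fatty acid synthase; and Insig2. Each line holds the 200 bases that end just before the start, on the strand of the gene, and capitals mark CCAAT on either strand, the letters bound by NF-Y, and TCACNCCAC, a sterol regulatory element. For Insig2 only the first of 3 starts is printed, with 3 matches of CCAAT, while the same stretch of each other start held 0. Which start these cells use was not measured. A gene counted as holding a motif if any of its windows did.
Hmgcs1, chr13:119690151-119690350, plus strand: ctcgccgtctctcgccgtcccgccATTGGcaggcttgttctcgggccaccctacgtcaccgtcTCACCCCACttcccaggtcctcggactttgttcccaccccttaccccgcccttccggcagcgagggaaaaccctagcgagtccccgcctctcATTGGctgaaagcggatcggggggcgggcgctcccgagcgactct
Mvd, chr8:122443423-122443622, minus strand: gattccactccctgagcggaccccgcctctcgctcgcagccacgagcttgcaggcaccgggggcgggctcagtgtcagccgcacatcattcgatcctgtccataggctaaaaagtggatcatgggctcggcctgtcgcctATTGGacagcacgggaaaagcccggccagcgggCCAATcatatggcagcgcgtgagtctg
Fasn, chr11:120824548-120824747, minus strand: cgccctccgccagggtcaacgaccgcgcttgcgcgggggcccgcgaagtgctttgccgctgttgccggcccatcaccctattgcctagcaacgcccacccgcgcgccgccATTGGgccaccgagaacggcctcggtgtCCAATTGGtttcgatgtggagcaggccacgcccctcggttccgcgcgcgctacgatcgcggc
Insig2, the first of its 3 starts, chr1:121332590-121332789, minus strand: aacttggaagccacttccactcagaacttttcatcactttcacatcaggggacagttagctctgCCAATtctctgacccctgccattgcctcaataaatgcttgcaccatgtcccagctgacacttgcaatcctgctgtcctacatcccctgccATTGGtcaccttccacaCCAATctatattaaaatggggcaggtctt
Searched on both strands of the whole window, with matches of different motifs free to overlap, CCAAT stood in 21 of the 28 members (75%) and in 41.1% of the 27025 genes of the table. Among members, 10 of 16 called lower and 11 of the 12 others held it. GGGCGG, the core of the Sp1 motif, stood in 24 members (85.7%) and in 38.2% of all genes, with 13 of 16 members called lower and 11 of 12 others. CACGTG, an E-box, stood in 6 members (21.4%) and 8.09% of all genes. TCACNCCAC was found in Hmgcs1 alone (3.57% of the 28 members), while 1.4% of all genes held it. The E-box stood in 3 of 16 members called lower and 3 of 12 others, and the sterol element in 1 of 16 and 0 of 12. Each motif but the sterol element thus stood both in members called lower and in others, in unequal shares. Whether any motif goes with the calls was not tested, and whether these letters are bound in these cells was not measured.

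In the mevalonate arm, which leads from acetyl-CoA to farnesyl diphosphate, 4 of 7 genes were called lower, 0 higher and 3 were not called, with a median log2 fold change of -0.91. The share called lower was 57.1%, against 22.1% of all genes tested, of which 22.8% were called higher. Mvd, the diphosphomevalonate decarboxylase (chr8:122433601-122443422, minus strand), changed most. It had 394, 404 and 485 CPM in wt (427 ± 50.1, SD, n = 3) and 107, 86.6 and 116 CPM where the label was Tks5+/- (103 ± 15.1), a log2 fold change of -2.05 (SE 0.21, adjusted p = 1.45e-07), or 4.14-fold lower. The lowest wt library was thus more than 3 times the highest of the others. Hmgcs1, the synthase that commits acetyl units to the pathway, had 782, 788 and 745 CPM in wt and 316, 434 and 429 CPM in those labelled Tks5+/- (log2 fold change -0.97, SE 0.20, adjusted p = 5.39e-04). The wt libraries lay close together, and all 3 others lay well below them. With the authors' normalized counts the fall was larger (-1.61). Mvk, mevalonate kinase, had 100, 99.5 and 97.5 CPM in wt and 45, 50.3 and 50.1 CPM in the others, the tightest separation of the arm (log2 fold change -1.03, SE 0.21, adjusted p = 3.55e-04). Acat2, the cytosolic acetyl-CoA acetyltransferase that joins the first acetyl units, had 207, 164 and 234 CPM in wt and 85.1, 121 and 115 CPM in those labelled Tks5+/- (log2 fold change -0.91, SE 0.22, adjusted p = 0.00152). Thus the fall was seen at the entry, at the kinase and at the decarboxylase.

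The other enzymes of the arm did not pass the test. Pmvk, phosphomevalonate kinase, which acts between Mvk and Mvd, had 98.5, 110 and 122 CPM in wt and 67.5, 104 and 83.9 CPM in the libraries labelled Tks5+/-, with overlapping groups (log2 fold change -0.38, 95% interval -0.82 to 0.06, adjusted p = 0.156). It was called lower with a correction of each library for transcript length (-0.84, adjusted p = 0.00244), and for length and GC content together (-0.53, adjusted p = 0.0470). Fdps, farnesyl diphosphate synthase, had 437, 534 and 403 CPM against 408, 503 and 416 CPM, and the interval of its log2 fold change, -0.47 to 0.37, leaves out a change of the size seen for Mvd. Its reads may be shared in part with another locus. Of the 50-base words in the last 600 bases of its transcript, 17.1% also stood in Gm43738, so its level is uncertain. Idi1, the isomerase of the isoprenoid unit, stayed between 4.28 and 7.61 CPM in all 6 libraries, about 10 counts on average, too few for a narrow interval (-0.70 to 1.21). Summed over the 7 genes, the arm held 2024, 2102 and 2092 CPM in wt and 1033, 1307 and 1215 CPM in the libraries labelled Tks5+/-.

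**Figure D3:**
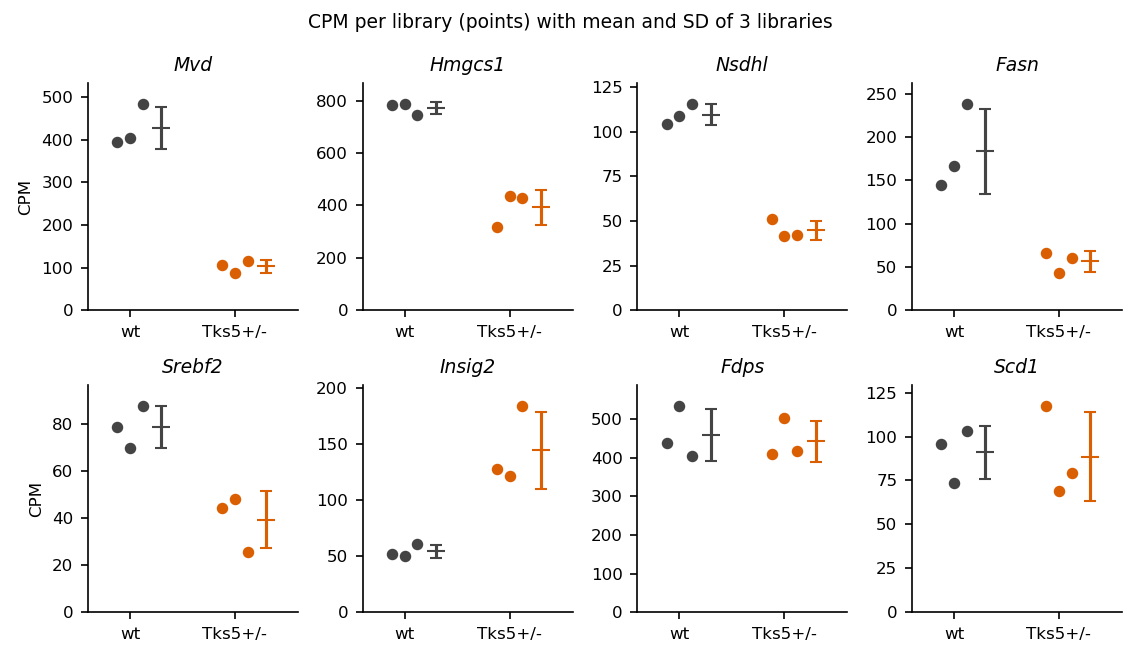
CPM (y axis, from 0) of 8 members in each library (points) with the mean and SD of the 3 libraries of a group (bars), wt in grey and the libraries labelled Tks5+/- in orange. Mvd, Hmgcs1, Nsdhl, Fasn and Srebf2 have no overlap and lie lower in orange, Insig2 lies higher, and Fdps and Scd1 overlap.

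From squalene to cholesterol, 5 of 11 genes were called lower, 1 higher and 5 were not called, with a median log2 fold change of -0.30. As shares, 45.5% were lower and 9.09% higher, against 22.1% and 22.8% of all genes tested. Sqle, squalene epoxidase, a rate-limiting oxygen-dependent step, had 138, 121 and 102 CPM in wt and 64.2, 57.3 and 36.3 CPM in the libraries labelled Tks5+/- (log2 fold change -1.19, SE 0.23, adjusted p = 2.57e-04). Lss, the lanosterol synthase that closes the sterol rings, had 57.9, 68.5 and 48.9 CPM in wt and 18.7, 12.9 and 23.5 CPM in the others (log2 fold change -1.66, SE 0.26, adjusted p = 2.64e-05). Both steps that follow squalene itself were thus lower in every library, although the end of Lss overlaps an antisense gene, 4930483K19Rik. Nsdhl, which with its partners removes the methyl groups at the fourth carbon of the sterol, had 104, 109 and 116 CPM in wt and 51, 41.5 and 42.0 CPM in those labelled Tks5+/- (log2 fold change -1.29, SE 0.21, adjusted p = 3.91e-05). Hsd17b7, the reductase of the same complex, had 115, 140 and 118 CPM against 82.3, 54.4 and 78.3 CPM (log2 fold change -0.79, SE 0.22, adjusted p = 0.00484). The correction for transcript length ended its call (-0.51, adjusted p = 0.0586), and that for length and GC content kept it (-0.71, adjusted p = 0.00962). Dhcr7, which makes the last double-bond reduction that yields cholesterol from 7-dehydrocholesterol, had 19.9, 16.1 and 24.1 CPM against 7.13, 6.44 and 5.12 CPM, a log2 fold change of -1.69 (SE 0.35, adjusted p = 4.38e-04). Its counts were low, 27 on average, but the groups did not overlap.

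Of the other 6 enzymes between squalene and cholesterol, 5 did not pass the test and 1 was higher. Fdft1, squalene synthase, had 224, 204 and 173 CPM in wt and 223, 230 and 240 CPM in those labelled Tks5+/- (log2 fold change 0.21, 95% interval -0.20 to 0.62), while the next enzyme, Sqle, had fallen. Its annotated end overlaps Ctsb on the other strand, and the sources used here do not state whether reads were counted by strand. Cyp51, the lanosterol demethylase, had 1225, 1417 and 1571 CPM in wt and 786, 1242 and 1386 CPM in the others (-0.30, 95% interval -0.77 to 0.16), so that only Tks5+/- replicate 1 lay clearly below wt. It was called lower with the authors' normalized counts (-1.19, adjusted p = 1.11e-04), and its end overlaps Akap9 on the other strand. Msmo1, the methylsterol oxidase, had 819, 622 and 689 CPM against 511, 730 and 741 CPM, and was likewise called lower with the authors' normalized counts (-0.75, adjusted p = 0.00607). Tm7sf2, a sterol reductase, stayed between 22.0 and 26.9 CPM in all 6 libraries, and Ebp, the sterol isomerase, ran from 143 to 204 CPM in wt and from 102 to 264 CPM in those labelled Tks5+/-, with no clear direction. Sc5d, the sterol desaturase that makes 7-dehydrocholesterol, had 208, 199 and 245 CPM in wt and 233, 334 and 424 CPM in those labelled Tks5+/- (log2 fold change 0.60, SE 0.22, adjusted p = 0.0303). The groups overlapped, and 4 of the 6 fits that left out a library lost the call. Without wt replicate 1 it was 0.57 (adjusted p = 0.0860) and without wt replicate 2 it was 0.54 (adjusted p = 0.126). Leaving out Tks5+/- replicate 2 gave 0.63 (adjusted p = 0.0505), and leaving out Tks5+/- replicate 3 gave 0.42 (adjusted p = 0.171). It was not called with the authors' normalized counts (0.14, adjusted p = 0.647) or with library totals as scaling (0.17, adjusted p = 0.524) either.

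Calls among the regulators of SREBP went in both directions. Of 5 genes, 2 were called lower, 1 higher and 2 were not called. That is 40% lower and 20% higher, against 22.1% and 22.8% of all genes tested. Srebf2, the factor most devoted to cholesterol synthesis, had 78.5, 69.6 and 87.5 CPM in wt and 44.5, 48.0 and 25.6 CPM in the libraries labelled Tks5+/- (log2 fold change -1.0, SE 0.24, adjusted p = 0.00175), with no overlap. Scap, the escort of the SREBPs, had 72.1, 61.0 and 56.4 CPM against 38.4, 25.8 and 34.8 CPM (log2 fold change -0.93, SE 0.23, adjusted p = 0.00247). Both calls depended on the trend of the libraries with transcript length and GC content: corrected for both, Srebf2 was -0.32 (adjusted p = 0.311) and Scap -0.31 (adjusted p = 0.286). With length alone corrected, Srebf2 (-0.66, adjusted p = 0.0318) and Scap (-0.69, adjusted p = 0.0188) were still called lower. Insig2, which retains Scap in the endoplasmic reticulum, had 52.1, 49.8 and 61.2 CPM in wt (54.4 ± 6.02) and 127, 121 and 184 CPM in the others (144 ± 34.5), with a log2 fold change of 1.40 (SE 0.22, adjusted p = 2.63e-05). It was called higher under each of the 21 alternatives tried. Insig1, its relative, whose transcription is itself driven by SREBP, had 23.2, 15.0 and 15.9 CPM against 21.4, 20.5 and 23.5 CPM, with overlapping groups (log2 fold change 0.29, 95% interval -0.30 to 0.88). Srebf1, the factor for lipogenesis, had 31.5, 29.4 and 32.3 CPM against 28.5, 35.7 and 21.5 CPM (-0.13, 95% interval -0.66 to 0.40). Its annotated end overlaps Rai1 on the other strand.

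Of the 6 genes of cholesterol transport, 5 were tested, 1 was called lower and 4 were not called. The 20% called lower is close to the 22.1% of all genes tested. Lrp1, a large endocytic receptor of the LDL receptor family that also takes up matrix proteases, had 111, 134 and 126 CPM in wt and 57.6, 48.0 and 30.7 CPM in the libraries labelled Tks5+/- (log2 fold change -1.45, SE 0.23, adjusted p = 3.19e-05). Corrected for transcript length and GC content it was -0.26 (adjusted p = 0.368) and not called, while with length alone corrected it was still called lower (-0.60, adjusted p = 0.0355). Abca1, which exports cholesterol from the cell, had 7.08, 11.8 and 8.90 CPM in wt and 19.2, 9.95 and 13.8 CPM in those labelled Tks5+/- (log2 fold change 0.62, 95% interval -0.12 to 1.37, adjusted p = 0.164). Once the length trend was removed it passed as higher (1.29, adjusted p = 0.00555), as it did after the joint correction (1.12, adjusted p = 0.0141). Both members with the longest transcripts in this role thus changed their call with the joint correction. Npc1 and Npc2 carry cholesterol out of the lysosome. Npc1 had 33.5, 21.9 and 20.8 CPM against 19.2, 21.6 and 12.3 CPM, and Npc2 had 797, 655 and 649 CPM against 668, 886 and 938 CPM, both with overlapping groups, and the end of Npc1 overlaps Rmc1 on the other strand. Stard4, a cytosolic sterol carrier, had 32.2, 20.9 and 34.9 CPM against 19.8, 28.7 and 34.3 CPM. Abcg1, another exporter, had 8, 2 and 12 counts in wt and 2, 3 and 0 counts in the others, too few to be tested.

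In lipogenesis, 6 of 8 genes were called lower, 0 higher and 2 were not called, with a median log2 fold change of -0.94. The share called lower was 75%, against 22.1% of all genes tested, of which 22.8% were called higher. Corrected for transcript length 4 were called lower, and for length and GC content 5, against 1853 and 1718 of all 10346 genes tested. Acly, which splits citrate to supply cytosolic acetyl-CoA, had 174, 176 and 191 CPM in wt and 112, 64.4 and 94.2 CPM in the libraries labelled Tks5+/- (log2 fold change -1.0, SE 0.22, adjusted p = 7.74e-04). Acaca, the carboxylase that makes malonyl-CoA, had 21.9, 27.8 and 25.9 CPM against 11.5, 12.3 and 7.16 CPM (-1.30, SE 0.31, adjusted p = 0.00166). Fasn, fatty acid synthase (chr11:120805846-120824547, minus strand), had 145, 167 and 239 CPM in wt (184 ± 49.1) and 66.4, 42.7 and 59.9 CPM in the others (56.3 ± 12.2), or 3.26-fold lower (-1.71, SE 0.24, adjusted p = 5.33e-06). The 3 steps from citrate to palmitate were thus lower together, with no overlap in any. The call of Acaca, whose transcript is long, was lost with the correction for length (-0.66, adjusted p = 0.0962) and with that for length and GC content (-0.77, adjusted p = 0.0517), while Fasn was called under each alternative. The fall of Fasn was smaller with those corrections, -1.05 (adjusted p = 9.69e-04) and -0.71 (adjusted p = 0.0142), respectively.

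Enzymes that lengthen and desaturate the fatty acids followed in part. Elovl6, which elongates palmitate to stearate, had 29.6, 33.2 and 32.3 CPM in wt and 19.8, 18.7 and 11.3 CPM in those labelled Tks5+/- (-0.94, SE 0.28, adjusted p = 0.00873). It was not called without Tks5+/- replicate 3 (-0.68, adjusted p = 0.0727) or once the length trend was removed (-0.52, adjusted p = 0.142). After the joint correction for length and GC content it was called (-0.72, adjusted p = 0.0411). Fads1 and Fads2 are the desaturases of polyunsaturated fatty acids, encoded side by side on chromosome 19. Fads1 had 216, 226 and 179 CPM against 140, 97.7 and 104 CPM (-0.86, SE 0.21, adjusted p = 0.00209). Fads2 had 217, 162 and 146 CPM against 107, 97.7 and 68.6 CPM (-0.94, SE 0.22, adjusted p = 0.00171). Neighbouring genes were thus lower by a like amount, and both were called under each alternative. Scd1 and Scd2, the desaturases that make oleate, were not called. Scd1 had 95.9, 73.8 and 103 CPM against 117, 69.0 and 79.3 CPM (-0.04, 95% interval -0.51 to 0.43). Scd2 had 320, 238 and 241 CPM against 241, 184 and 157 CPM (-0.46, 95% interval -0.90 to -0.01, adjusted p = 0.0875). It was called lower without Tks5+/- replicate 1 (-0.59, adjusted p = 0.0391), with library totals as scaling (-0.87, adjusted p = 0.00318) and with the authors' normalized counts (-0.81, adjusted p = 0.00843). Its value was nearer 0 without Tks5+/- replicate 3 (-0.29, adjusted p = 0.356), with length corrected (-0.077, adjusted p = 0.789) and after the joint correction (-0.17, adjusted p = 0.537). Summed over the 8 genes, lipogenesis held 1219, 1104 and 1157 CPM in wt and 815, 587 and 581 CPM in the libraries labelled Tks5+/-.

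Counts of neighbouring or related members mostly changed unequally, which ratios of raw counts within a library show without any scaling. These pairs were chosen after the values were seen and carry no test. Mvd to Fdps was 0.901, 0.756 and 1.2 in wt and 0.262, 0.172 and 0.279 in the libraries labelled Tks5+/-. Sqle to Fdft1, consecutive steps, was 0.615, 0.592 and 0.592 in wt and 0.288, 0.249 and 0.152 in the others. In both pairs the groups lay apart, so that the counts of these steps did not fall in parallel. Both denominators carry the limits given above, words of Fdps shared with Gm43738 and the overlap of Fdft1 with Ctsb. Whether reads of those loci entered the ratios was not tested. Fasn to Scd1 was 1.51, 2.3 and 2.32 against 0.565, 0.619 and 0.755. Srebf2 to Srebf1 was 2.49, 2.36 and 2.71 against 1.56, 1.34 and 1.19, and Insig2 to Insig1 was 2.25, 3.32 and 3.84 against 5.95, 5.91 and 7.80. The balance of counts within the SREBP and the Insig pairs thus differed between the groups in every library, although the end of Srebf1 overlaps Rai1. Scd2 to Scd1 overlapped, with 3.34, 3.22 and 2.34 against 2.05, 2.67 and 1.97.

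**Figure D4:**
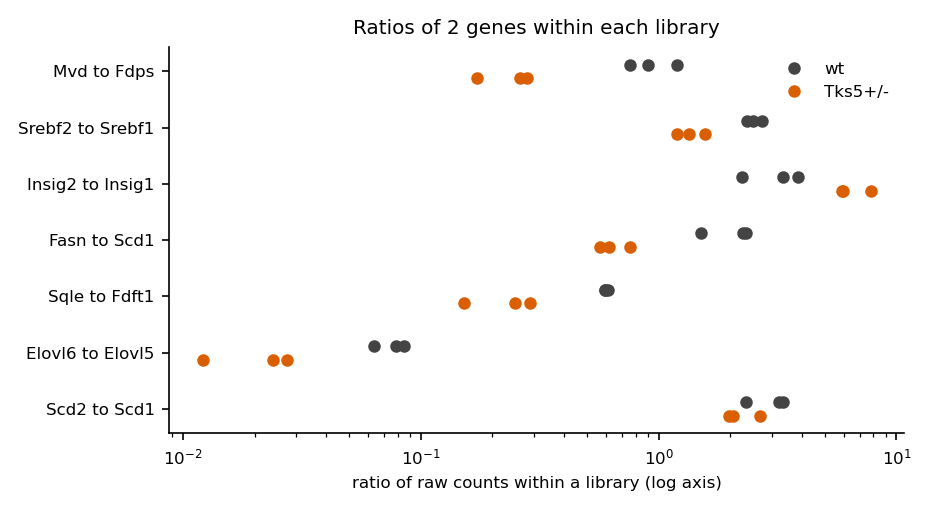
Ratio of the raw counts of 2 genes within each library (x axis, log scale), wt in grey and libraries labelled Tks5+/- in orange, 3 points per group. Mvd to Fdps, Sqle to Fdft1 and Fasn to Scd1 lie lower in orange, Insig2 to Insig1 higher, and Scd2 to Scd1 overlaps.

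Long transcripts were lower in the libraries labelled Tks5+/- across all genes (Spearman's rho between log2 fold change and transcript length -0.397 across 10339 genes, which share libraries and are not replicates), and the same measure was -0.164 across the 36 members. Corrected for length, 16 members were called lower and 3 higher, with a median of -0.51. Of all 10346 genes tested, 1853 were then called lower and 2167 higher, with a median of 0.02. Corrected for length and GC content, 15 were lower and 3 higher, with a median of -0.31. Of all 10346 genes, 1718 were then lower and 2130 higher, with a median of 0.04. In the roles, the mevalonate arm had 5 genes lower after the second correction, the step from squalene to cholesterol 5, lipogenesis 5 and SREBP regulation 0. Of the 20 called members, 13 kept their call under each of the 21 alternatives: Acat2, Hmgcs1, Mvk, Mvd, Sqle, Lss, Nsdhl, Dhcr7, Acly, Fasn, Fads1 and Fads2, which were lower, and Insig2, which was higher.

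**Figure D5:**
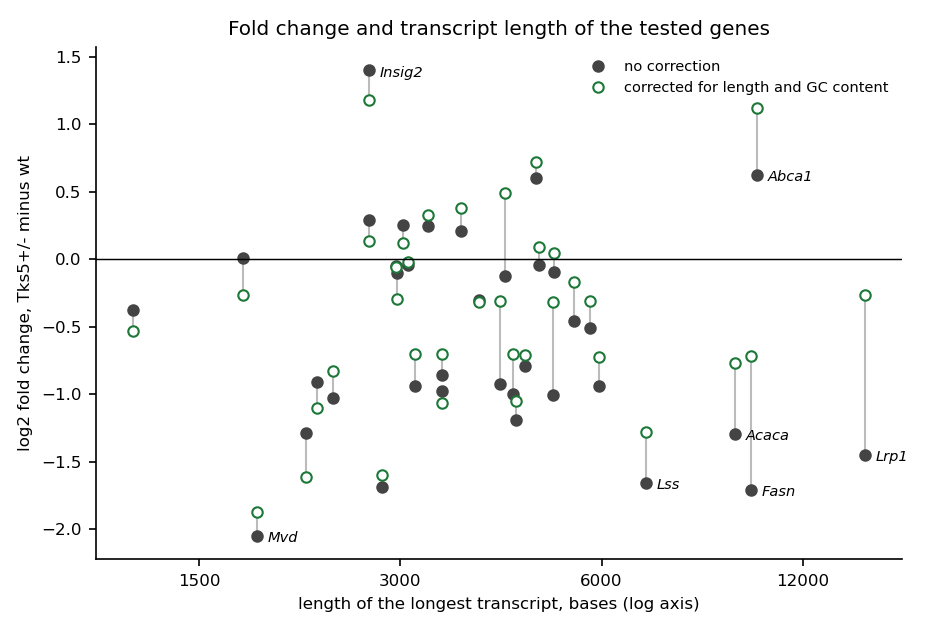
Log2 fold change of the 36 tested members, libraries labelled Tks5+/- minus wt (y axis), against the length of the longest transcript in bases (x axis, log scale), before (filled) and after (open) each library was corrected for length and GC content, with a line joining the values of a gene. Lrp1 moved from -1.45 to -0.26 and Abca1 from 0.62 to 1.12, while Mvd stayed low.

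Among 29 further genes of the same pathways that are no members, 24 were tested, 6 called lower and 4 higher, 25% and 16.7% of those tested, close to the 22.1% and 22.8% of all genes, with a median log2 fold change of -0.19. Corrected for transcript length, 2 were called lower and 6 higher, and for length and GC content 3 and 4. The first correction called 1853 of all 10346 genes lower and 2167 higher, the second 1718 and 2130. Lpin1, the phosphatidate phosphatase that makes diacylglycerol for triglycerides and a known SREBP target, had 45.7, 43.3 and 66.7 CPM in wt and 3.84, 4.10 and 7.16 CPM in the libraries labelled Tks5+/- (log2 fold change -3.35, SE 0.32, adjusted p = 7.36e-08), a larger fall than that of any member. Gpam, which starts glycerolipid synthesis, was also lower (-1.04, adjusted p = 0.0143), as were the elongase Elovl1 (-0.56, adjusted p = 0.0242), the desaturase-like Fads3 (-0.65, adjusted p = 0.0137), the SREBP-cleaving protease Mbtps1 (-0.68, adjusted p = 0.00929) and Erlin2, a protein of the endoplasmic reticulum membrane (-0.88, adjusted p = 0.0126). Erlin1, its partner there, was higher (1.57, adjusted p = 0.00253), and so the pair of Erlin genes had opposite signs. Also higher were Nr1h2, a sterol-sensing nuclear receptor (1.55, adjusted p = 6.92e-05), the elongase Elovl5 (0.94, adjusted p = 7.19e-04) and, with overlapping groups, Tmem97, a sterol-regulated membrane protein (0.53, adjusted p = 0.0475). Elovl5, with 467, 424 and 380 CPM in wt and 723, 780 and 930 CPM in the others, thus went the other way from Elovl6, but was not called with the authors' normalized counts (0.32, adjusted p = 0.199). Tmem97 was called in 1 of 6 fits that left out a library. Calls of the genes that fell, other than Lpin1, were also lost under some settings. With length corrected, Gpam was -0.60 (adjusted p = 0.157), Fads3 -0.50 (adjusted p = 0.0564), Mbtps1 -0.20 (adjusted p = 0.448) and Erlin2 -0.56 (adjusted p = 0.112). With GC content corrected too, only Erlin2 of these genes was called (-0.77, adjusted p = 0.0303). Elovl1 lost its call without Tks5+/- replicate 2 (-0.49, adjusted p = 0.0849), Tks5+/- replicate 3 (-0.52, adjusted p = 0.0796) or wt replicate 2 (-0.49, adjusted p = 0.125). Mbtps1 lost it without Tks5+/- replicate 2 (-0.57, adjusted p = 0.0522) or replicate 3 (-0.60, adjusted p = 0.0507), Gpam without Tks5+/- replicate 2 (-0.92, adjusted p = 0.0523) or wt replicate 2 (-0.85, adjusted p = 0.0979), and Erlin2 without wt replicate 2 (-0.78, adjusted p = 0.0691).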

How the data were processed

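RNA was sequenced with Lexogen's 3' mRNA-Seq kit for Ion Torrent. Per the labels and the study's methods, the authors used Trim Galore for trimming, HISAT2 followed by Bowtie2 for alignment to GRCm38 and metaseqR2 for counting on 3' ends, and deposited raw counts per gene. They also deposited normalized counts, made with EDASeq and rounded, which are used here as a score and only in an alternative. In that table the sorted values are identical between libraries. The strand setting of the counting is not given in the sources used here. The authors' combined test was not rebuilt.

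Raw counts were filtered with filterByExpr, scaled by TMM and tested by edgeR 4.0.16 (robust quasi-likelihood F test, R 4.3.3) over 10346 genes, with Benjamini-Hochberg adjustment. Calls needed a fold change of at least 1.2 and an adjusted p below 0.05. CPM, intervals and SE are from this fit. Members were matched to GENCODE M21. The alternatives were DESeq2 1.42.0, limma-voom (limma 3.58.1), the normalized counts with limma (pseudocount 1), other scalings and filters, corrections for GC content and transcript length (loess span 0.5, prior count 2), other thresholds, a replicate block and each library left out. Every member is named, and of the further pathway genes those called. Members and lists were chosen with earlier results of these data known. Whether equal replicate numbers pair the samples is not stated by the labels. Correlations of the deviations of same-numbered libraries were -0.00101, -0.0635 and 0.0817, and those of differently numbered libraries ran from -0.102 to 0.097. With so few libraries these values cannot decide it. Replicates differed by more than sampling noise (chi-square per degree of freedom 3.89 to 10.5). Tables and plots were made with pandas 2.3.3, numpy 2.4.6, scipy 1.17.1 and matplotlib 3.10.9.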

Additional observations from a re-analysis of the deposited data

How the results depend on the processing

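Counts of members called lower ranged from 15 (transcript length and GC correction) to 24 (library totals as scaling), and from 17 to 19 when a library was left out. Members called higher were 1 with the authors' normalized counts, library totals, the replicate block with GC correction and the test against a fold change of 1.2, and 1 to 2 with a library left out. The median log2 fold change of tested members was -0.84 when each library needed at least 10 counts, -0.97 with the authors' normalized counts, -1.06 with library totals, -0.80 with no filter on low counts, -0.31 with length and GC correction, -0.51 with length correction, and -0.72 to -0.61 with a library left out. With library totals all genes gave 3944 lower and 1362 higher, and with length and GC correction 1718 and 2130. With the replicate block, 18 members were lower and 2 higher (median -0.66), and no member's call changed. With the block and GC correction it was 19 and 1, as Scd2 was then called (-0.53, adjusted p = 0.0364) and Sc5d was not (0.51, adjusted p = 0.0527).

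No called member changed sign. Signs changed only in members that were not called, in Tmem97 and in Sh3pxd2a. With library totals Idi1 was -0.17, Fdft1 -0.22, Ebp -0.44, Insig1 -0.13, Npc2 -0.19 and Sh3pxd2a -0.13. With the authors' normalized counts Fdft1 was -0.17, Tm7sf2 0.12, Ebp -0.41, Srebf1 0.0013, Npc2 -0.41 and Tmem97 -0.090. With length correction Tm7sf2 was 0.0070, Ebp -0.23, Srebf1 0.12, Stard4 0.26 and Scd1 0.27, and with length and GC content Ebp was -0.26, Srebf1 0.49, Stard4 0.050 and Scd1 0.093. Ebp was also -0.0075 with GC correction, -0.048 with at least 10 counts, -0.088 with limma-voom, -0.0049 with no filter, -0.10 with the block and GC correction, -0.081 with the block and -0.026 with upper-quartile scaling. Srebf1 was 0.16 with GC correction and 0.13 with the block and GC correction. Left-out libraries gave ranges of -0.14 to 0.071 for Fdps, -0.078 to 0.071 for Tm7sf2, -0.19 to 0.11 for Msmo1, -0.43 to 0.33 for Ebp, -0.29 to 0.083 for Srebf1, -0.29 to 0.15 for Stard4 and -0.24 to 0.14 for Scd1. The cause of these changes was not tested. Depth was too low to test Abcg1 and, of the tested members, was lowest for Idi1, Abca1, Dhcr7 and Acaca, and 3 libraries per group cannot give a permutation p below 0.1.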
